A study of Mus musculus with 15 samples.

Results

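The collagen genes were taken as every row of the deposited expression table whose Ensembl identifier maps to a symbol made of Col, a type number, the letter a and a chain number. There were 36 of them among the 17712 measured genes, out of 44 such symbols in the annotation. The naming rule itself used no expression value, although it was set with earlier results of these data known. By class, 10 encode fibrillar chains, 5 basement membrane chains, 6 fibril-associated chains (FACIT, fibril-associated collagens with interrupted triple helices) and 15 chains of the remaining kinds. The other 8 (Col2a1, Col4a6, Col9a1, Col9a2, Col10a1, Col17a1, Col19a1 and Col26a1) had no row in the table and were not analysed here.

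Collagens are secreted proteins in which chains wind into a triple helix, and they make up much of the matrix between the cells of a tissue. Fibrillar chains build the cable-like fibrils of connective tissue, type IV chains build the sheet-like network of basement membranes around vessels and epithelia, and FACIT chains sit on the surface of fibrils. In tumours fibroblasts make most of the fibrillar collagen, while vessel walls, macrophages and the tumour cells themselves can add other types.

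MC38 is an established colon carcinoma line of the mouse, and the tumours were formed from it beneath the skin of C57BL/6 mice to about 5 mm. Each was injected with 100 µL into the tumour and taken 24 h later, and its polyadenylated RNA was sequenced with strand information in read pairs of 150 bp. Of the 15 tumours, 3 received vehicle (PBS with 5% DMSO and 5% glucose), 4 received 50 µg of BO-112, 4 received 100 µg of DMXAA, and 4 received both agents at these doses. BO-112 is a formulated double-stranded RNA mimic that triggers cytosolic and endosomal RNA sensors, and DMXAA is a small molecule that activates mouse STING, the adaptor of the cytosolic DNA-sensing pathway. The labels number the tumours as biological replicates, so p-values measure the spread between these tumours, and they give neither the age of the mice nor a batch. Libraries are named by group and replicate, those of both agents as BO-112+DMXAA. The 3 vehicle tumours serve every comparison with vehicle, so those comparisons are not independent of each other. In whole tumours a lower level can come from fewer cells of a kind or from less RNA per cell, and these cannot be told apart here.

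Depth was between 12725316 and 19660511 reads per library, with scaling factors from 0.85 to 1.08. Levels below are CPM (counts scaled to library size), and levels compared between genes are given per kilobase of the longest annotated transcript. The libraries DMXAA 2 and DMXAA 3 held long transcripts at low levels. The median collagen gene stood 0.66 and 0.36 log2 units below the mean of the other libraries there, and the median of 1738 genes within the middle range of collagen transcript lengths stood 0.53 and 0.30 below. Collagen transcripts are long, with a median of 6453 bases against 2723 over all genes. Skeletal muscle genes (14 measured of a list of 15) summed to 219 CPM in vehicle 2, 653 in BO-112 1, 1102 in DMXAA 1 and 526 in DMXAA 3, and to between 12.2 and 39.6 CPM in the other libraries. Of 8 epithelial markers of a colon carcinoma 4 were measured, and in the vehicle tumours the cadherin Cdh1 was at 45.2 ± 32.4 CPM (SD, n = 3) and the adhesion protein Epcam at 1.91 ± 0.73 CPM.

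A small number of chains made up most of the collagen RNA. Per kilobase and averaged over the 15 libraries, Col3a1, the single chain of type III fibrils, was highest at 653 CPM per kb. It was followed by the type VI chains Col6a1 at 277 and Col6a2 at 165 CPM per kb, the type I chains Col1a1 at 162 and Col1a2 at 119 CPM per kb, and Col6a3 at 116 CPM per kb. Among basement membrane chains Col4a1 led with 93.2 and Col4a2 with 59.4 CPM per kb, ahead of Col4a5 with 2.37 CPM per kb. Among FACIT chains Col16a1 led with 70.9 CPM per kb, followed by Col12a1 at 11.03 and Col14a1 at 3.42 CPM per kb. At the low end Col4a3, a chain of the kidney filter's basement membrane, was at 0.0205 CPM per kb. Of the 36 genes, 16 had a mean of 100 CPM or more, 23 reached 1 CPM in all 15 libraries, and 7 (Col22a1, Col25a1, Col28a1, Col4a3, Col4a4, Col6a6 and Col8a2) did not reach 1 CPM in at least 4 libraries.

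**Figure D1:**
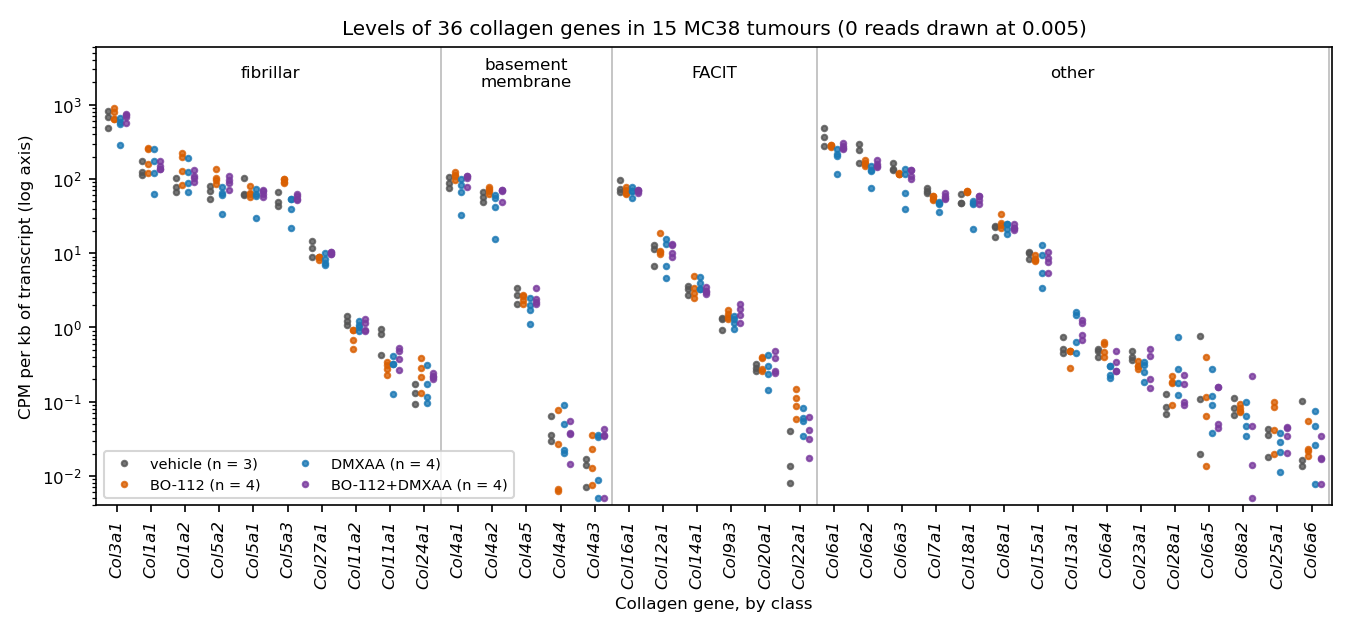
Level of each of the 36 collagen genes in each of the 15 tumours, in CPM per kilobase of transcript on a log axis, with genes grouped by class and points coloured by treatment. Col3a1 leads at a mean of 653 CPM per kb and Col4a3 is lowest at 0.0205, and for most genes the 4 groups lie close together beside the range between genes.

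Together the 36 genes took 1.42% ± 0.30 of the reads in vehicle tumours (SD, n = 3), 1.34% ± 0.15 with BO-112 (n = 4), 1.00% ± 0.38 with DMXAA (n = 4) and 1.28% ± 0.11 with both agents (n = 4). The lowest single library was DMXAA 2 at 0.484%, and the highest was vehicle 1 at 1.74%. DMXAA 2 was also the lowest library for 13 of the 16 abundant chains, and vehicle 1 the highest for 6 of them. Within groups the SD of the abundant chains ran from 0.14 log2 units for Col7a1 to 0.56 for Col1a1.

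Sequences upstream of the start of transcription are shown for chains described below: Col5a3 and Col18a1, higher with BO-112 than with DMXAA, Col7a1 and Col6a2, the 2 called lower with DMXAA (Col6a2 marginally), and Col6a1, the genomic neighbour of Col6a2, which was not called. They are the 250 bases before an annotated start, the first in the table where a gene has 2, from RefSeq (build GRCm38.p6; the deposited table was made on mm39), read 5′ to 3′ on the gene's strand. Capitals mark a GC box (GGGCGG or its reverse complement, bound by Sp family factors) or a CCAAT box on either strand.
Col5a3, chr9:20815068-20815317, minus strand: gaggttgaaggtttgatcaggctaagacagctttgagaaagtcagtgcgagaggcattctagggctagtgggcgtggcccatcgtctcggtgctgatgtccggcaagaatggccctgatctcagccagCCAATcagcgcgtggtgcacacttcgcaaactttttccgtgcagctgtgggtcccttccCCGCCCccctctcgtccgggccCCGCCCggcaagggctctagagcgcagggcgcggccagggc
Col18a1, chr10:77166531-77166780, minus strand: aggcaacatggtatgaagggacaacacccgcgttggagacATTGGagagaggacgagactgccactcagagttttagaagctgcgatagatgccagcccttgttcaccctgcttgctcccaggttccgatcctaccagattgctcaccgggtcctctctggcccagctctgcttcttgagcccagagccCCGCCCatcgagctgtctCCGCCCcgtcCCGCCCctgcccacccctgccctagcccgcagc
Col7a1, chr9:108953336-108953585, plus strand: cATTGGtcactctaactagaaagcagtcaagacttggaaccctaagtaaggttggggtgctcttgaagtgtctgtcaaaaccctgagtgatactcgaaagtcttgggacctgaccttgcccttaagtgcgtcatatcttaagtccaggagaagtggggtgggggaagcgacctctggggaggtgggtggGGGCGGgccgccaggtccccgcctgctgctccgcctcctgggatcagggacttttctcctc
Col6a2, chr10:76623405-76623654, minus strand: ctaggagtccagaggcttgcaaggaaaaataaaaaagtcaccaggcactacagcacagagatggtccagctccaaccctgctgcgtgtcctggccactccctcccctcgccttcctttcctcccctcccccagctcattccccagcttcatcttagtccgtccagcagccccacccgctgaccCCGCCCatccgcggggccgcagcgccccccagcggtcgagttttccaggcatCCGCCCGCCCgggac
Col6a1, chr10:76726045-76726294, minus strand: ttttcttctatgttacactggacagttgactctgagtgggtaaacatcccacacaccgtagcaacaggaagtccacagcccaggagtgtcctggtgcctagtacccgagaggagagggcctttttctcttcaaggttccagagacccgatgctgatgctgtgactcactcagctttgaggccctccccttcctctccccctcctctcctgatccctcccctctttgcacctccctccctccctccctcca
In these windows Col6a2 held 3 GC boxes, of which 2 overlap, Col18a1 3, Col5a3 2 and Col7a1 1, and Col6a1 held none. A CCAAT box was present once each for Col5a3, Col7a1 and Col18a1. The windows of the other annotated starts differed: that of Col18a1 held 0 GC boxes and 0 CCAAT boxes, and that of Col6a2 held 1 GC box. RefSeq entries were found for 29 of the 36 genes, in 31 windows, and a GC box was present in 20 of the 31 (64.5%) against 32.7% of all 32851 windows of this length. The median GC content was 60.4% against 52.4% and the shares were not adjusted for it. The CCAAT box was in 35.5% of collagen windows against 33.8% of all, the TATA box (TATAAA) in 9.68% against 12.4%, and the AP-1 letters (TGANTCA) in 3.23%, which is Col6a1 alone, against 6.75%. For motifs of the pathways downstream of RNA and DNA sensing, the interferon-stimulated response element (a pair of GAAA blocks with 2 free bases between) was in 0 of 31 collagen windows against 2.98% of all. The interferon-gamma activated site (TTCNNNGAA) was in 6.45% against 7.02%, and the NF-kB letters (GGG, 5 free bases, CC, which can overlap a GC box) in 77.4% against 45.8%. Letters in a window are a description and show no binding.

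Across the comparisons, a collagen gene was called when limma's moderated test, adjusted by Benjamini-Hochberg over all 17712 genes, gave a value under 0.05. Fold changes are on the log2 scale of CPM with 0.5 reads added, which understates changes of the lowest genes. With BO-112 against vehicle 4 of 36 were called (11.1%), beside 11.9% of all genes. Of these 2 were higher and 2 lower, beside 7.64% of all genes higher and 4.31% lower. Scaled by total count alone the split was 1 higher and 4 lower. With DMXAA against vehicle 2 of 36 were called (5.56%), both lower, beside 1.25% of all genes in either direction and 0.169% lower. With both agents against vehicle 0 of 36 were called by limma or by limma-voom, beside 2.67% of all genes, and 2 had an unadjusted p under 0.05. Between the single agents, BO-112 was higher than DMXAA for 5 of 36 (13.9%), beside 11.2% of all genes higher and 21.4% in either direction. Both agents against BO-112 gave 0 calls among the 36 and 0% among all genes, with 5 at an unadjusted p under 0.05, and both agents against DMXAA gave 0 calls beside 0.886% of all genes, with 8 unadjusted. Limma-voom also gave 0 in each of these. The shares for BO-112 against vehicle and for BO-112 against DMXAA are near the background. That for DMXAA against vehicle rests on 2 genes. Of these, Col6a2 held in 3 of the 15 fits with a library left out. The other, Col7a1, was lost when a trend on transcript length was removed. None of these shares was compared with that of genes of like length. Without the 4 libraries high in skeletal muscle genes, which leaves 2 vehicle, 3 BO-112 and 2 DMXAA tumours, 1 call among the 36 held, that of Col5a3 between the single agents.

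Counted by groups that did not overlap, 9 of 36 collagen genes separated BO-112 from vehicle (25%) beside 35.0% of all genes, 7 separated DMXAA from vehicle (19.4%) beside 11.5%, and 2 separated both agents from vehicle (5.56%) beside 16.5%. For both agents against BO-112 the count was 4 (11.1%) beside 10.2%, for both agents against DMXAA 1 (2.78%) beside 7.97%, and for BO-112 against DMXAA 8 (22.2%) beside 22.7%. These shares were not compared with those of genes of like length. All 36 collagen transcripts are longer than that of the median gene, and DMXAA 2 and DMXAA 3 held long transcripts at low levels.

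The typical collagen gene moved little against vehicle with BO-112 and with both agents, and more in comparisons that involve DMXAA alone. The median log2 fold change of the 36 was 0.11 with BO-112 beside -0.04 over all genes, -0.29 with DMXAA beside 0.01, and 0.00 with both agents beside -0.01. The DMXAA median depended on DMXAA 2 and DMXAA 3, which held long transcripts at low levels: without them it was 0.02. DMXAA 2 also held the highest adipocyte marker sum (401 CPM), and DMXAA 3 skeletal muscle genes at 526 CPM. The part of each of these traits was not tested. The BO-112 median turned to -0.05 when libraries were scaled by total count alone, a scaling with a shift of -0.16 in the median of all genes, and that of both agents to -0.07. Between the single agents, BO-112 less DMXAA, the collagen median was 0.38 beside -0.05, and 0.08 without DMXAA 2 and DMXAA 3. There 29 of 36 differences were positive (80.6%), beside 47.0% of all genes. For both agents less DMXAA the collagen median was 0.33 beside -0.001, with 28 of 36 positive (77.8%) beside 49.9% of all genes. For both agents less BO-112 it was -0.10 beside 0.01.

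**Figure D2:**
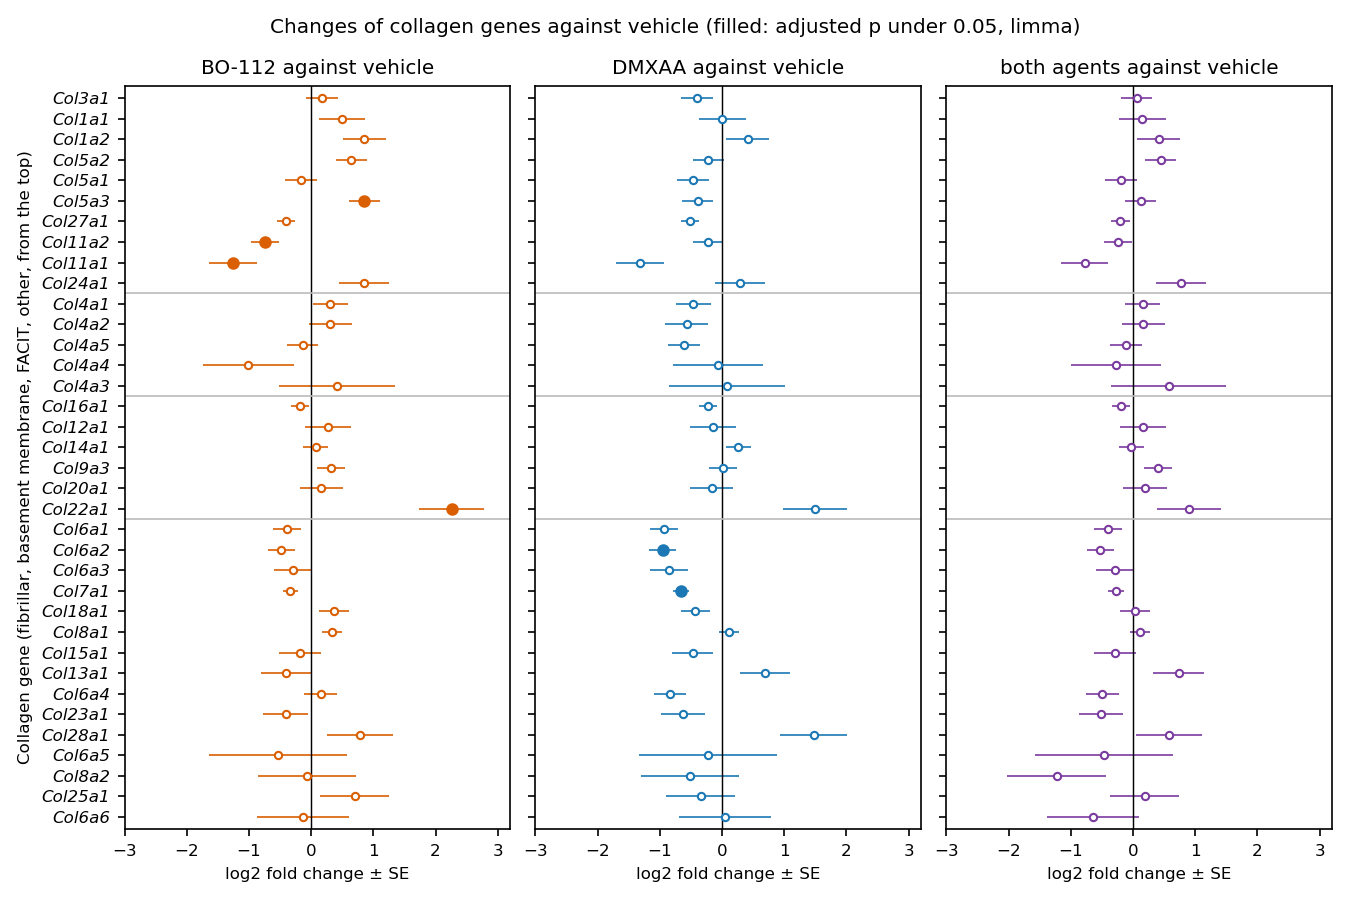
Log2 fold change against vehicle with its standard error for each of the 36 collagen genes, from the limma model over 15 tumours, in 3 panels for BO-112, DMXAA and both agents. Filled points have an adjusted p under 0.05: 4 with BO-112, 2 with DMXAA and 0 with both agents.

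Among the fibrillar chains, Col5a3 was called higher and both type XI chains lower with BO-112, while the abundant type I and III chains did not pass the test. The share called over all collagens, 11.1%, was near the 11.9% of all genes. With a library left out, the type XI calls held in 5 (Col11a1) and 7 (Col11a2) of the 15 fits. Col5a3 (ENSMUSG00000004098.8), a less common chain of the type V collagen that sets fibril diameter, was at 405, 303 and 264 CPM in the vehicle tumours. It was at 554, 612, 602 and 540 CPM with BO-112, at 332, 132, 240 and 330 CPM with DMXAA, and at 357, 388, 317 and 332 CPM with both agents. All 4 BO-112 tumours lay above all 11 others. The log2 fold change was 0.86 ± 0.25 (SE) against vehicle (limma adjusted p = 0.0373) and 1.25 ± 0.23 against DMXAA (limma adjusted p = 0.00257). The second call held with each of the 15 libraries left out in turn and in each of the 11 other settings tried, with 0.80 as its value without DMXAA 2 and DMXAA 3. The first held in 8 of the 15 and was lost without vehicle 2, vehicle 3, BO-112+DMXAA 1 or any one of the BO-112 tumours, and with scaling by total count alone (0.70, adjusted p = 0.122). With both agents the level was 348 ± 31.4 CPM (SD, n = 4), and its difference from BO-112 alone did not pass (-0.73 ± 0.23, limma adjusted p = 0.312), although those groups did not overlap.

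Col5a2 (ENSMUSG00000026042.17), a main chain of type V collagen and the genomic neighbour of Col3a1, was at 529, 355 and 451 CPM with vehicle. With BO-112 it was at 635, 691, 566 and 894 CPM, with DMXAA at 430, 225, 397 and 522 CPM, and with both agents at 736, 647, 465 and 579 CPM. The BO-112 tumours lay above every vehicle and DMXAA tumour. The test passed against DMXAA (0.87 ± 0.23, limma adjusted p = 0.0199) and not against vehicle (0.64 ± 0.25, limma adjusted p = 0.113). The call against DMXAA was lost without BO-112 4, where the adjusted p was 0.0608, and without DMXAA 2 and DMXAA 3 together (0.54, adjusted p = 0.117), with array quality weights (0.53, adjusted p = 0.0730) and with only the compared groups in the fit (adjusted p = 0.0736). The third type V gene, Col5a1, was at 637 ± 198 CPM with vehicle and 556 ± 78.6 CPM with BO-112, a difference of -0.16 ± 0.25 (limma adjusted p = 0.751).

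The type XI chains, better known from cartilage, were present at low levels. Col11a1 (ENSMUSG00000027966.21) was at 7.33, 3.27 and 6.17 CPM with vehicle and at 2.63, 2.10, 1.73 and 2.42 CPM with BO-112. It was at 2.48, 0.981, 2.49 and 3.17 CPM with DMXAA and at 2.86, 3.75, 2.05 and 4.06 CPM with both agents. The vehicle tumours lay above every tumour given a single agent. The fall with BO-112 was -1.26 ± 0.38 (limma adjusted p = 0.0433), and the difference with DMXAA, -1.32 ± 0.38, did not pass (limma adjusted p = 0.113). Col11a2 (ENSMUSG00000024330.18) was at 8.75, 6.48 and 7.41 CPM with vehicle and at 5.65, 5.65, 4.06 and 3.06 CPM with BO-112, a fall of -0.74 ± 0.23 (limma adjusted p = 0.0458). With DMXAA it was between 5.47 and 7.47 CPM and overlapped vehicle. Of 6 cartilage markers 2 were measured, and their summed level was 114 to 146 CPM with vehicle and 98.4 to 134 CPM with BO-112; its part in these results was not tested. Both calls were fragile: that of Col11a1 held in 5 of the 15 fits with a library left out (without vehicle 2, DMXAA 1, DMXAA 2, DMXAA 4 or BO-112+DMXAA 3). That of Col11a2 held in 7, and was lost without any vehicle tumour, BO-112 3, BO-112 4, DMXAA 3, BO-112+DMXAA 2 or BO-112+DMXAA 4, and with geometric mean scaling (adjusted p = 0.0502).

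**Figure D3:**
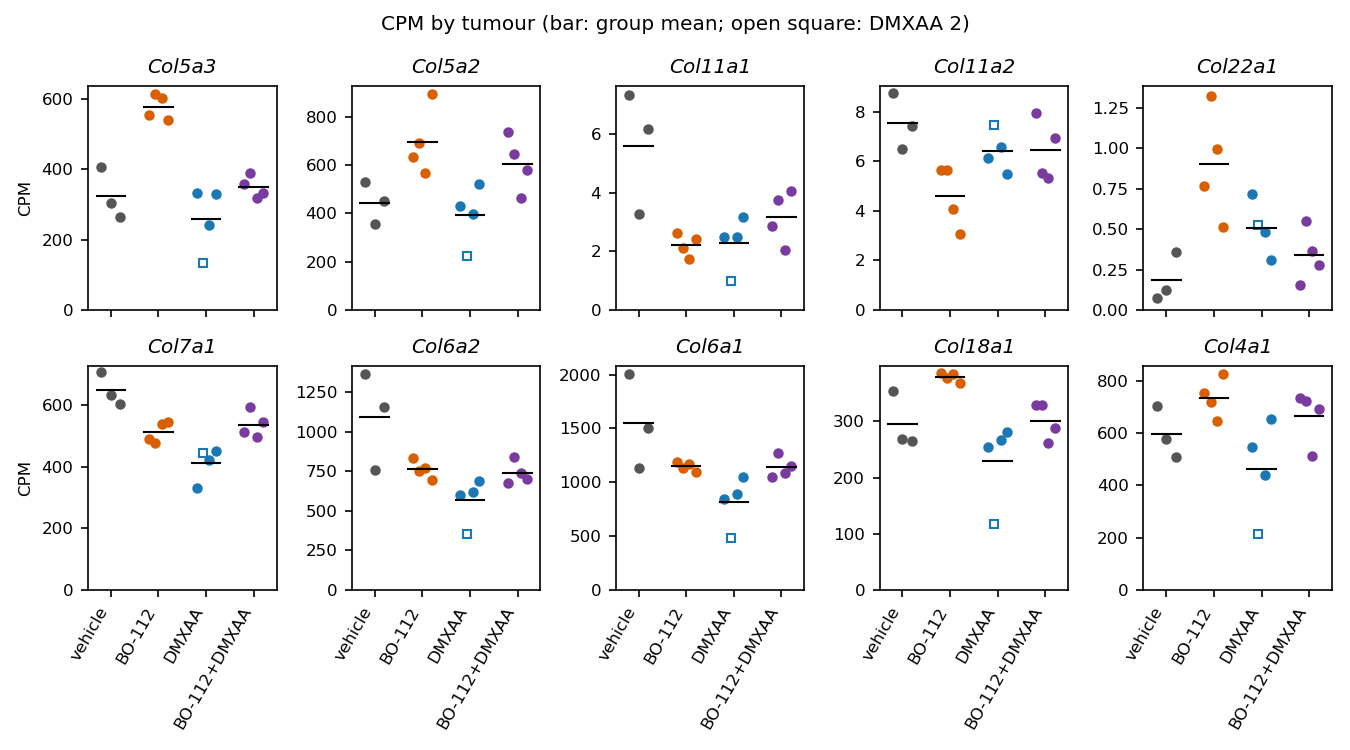
CPM of 10 collagen genes in each tumour, by group, with the group mean as a bar and the library DMXAA 2 as an open square. Each vertical axis starts at 0. The 4 BO-112 tumours lie above all others for Col5a3 (540 to 612 CPM), and the 4 DMXAA tumours lie below all others for Col7a1 (330 to 450 CPM).

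The major fibrillar chains varied widely between tumours of the same group. Col1a1 was at 813 ± 184 CPM with vehicle, between 719 and 1557 CPM with BO-112, between 369 and 1523 CPM with DMXAA, and at 893 ± 113 CPM with both agents. Its differences from vehicle were 0.49 ± 0.38, 0.01 ± 0.38 and 0.15 ± 0.38, none of which passed (limma adjusted p = 0.452, 0.993 and 0.979). Col1a2 stood at 552, 412 and 362 CPM with vehicle and at 445, 1186, 685 and 1067 CPM with BO-112, a difference of 0.86 ± 0.35 that did not pass (limma adjusted p = 0.126). Those groups overlapped through BO-112 1. Col3a1 was at 4589, 2743 and 3809 CPM with vehicle and between 3534 and 5033 CPM with BO-112 (0.18 ± 0.26, limma adjusted p = 0.728), and at 2887 ± 899 CPM with DMXAA. The minor chains Col27a1 and Col24a1 were at 89.4 ± 21.8 and 0.946 ± 0.290 CPM with vehicle, and neither was called in any comparison.

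Chains that assemble into 1 collagen type can be compared within a tumour, where scaling between libraries drops out. The type I heterotrimer holds more alpha 1 than alpha 2 chains, and the log2 ratio of Col1a1 to Col1a2 was 0.89, 0.84 and 0.91 in the vehicle tumours. It was 0.69, 0.35, 0.48 and 0.55 with BO-112, 0.58, 0.05, 0.63 and 0.64 with DMXAA, and 0.74, 0.55, 0.54 and 0.63 with both agents. All 12 treated tumours lay below all 3 vehicle tumours. Per transcript length the mean ratio was 1.66 with vehicle and 1.29, 1.27 and 1.38 in the treated groups. The differences were -0.36, -0.40 and -0.26 on the log2 scale, each with an exact permutation p of 0.0571 (two-sided), the smallest that 4 against 3 tumours can give. The DMXAA difference includes DMXAA 2 at 0.05, apart from the other DMXAA tumours at 0.58 to 0.64.

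The ratio of Col5a1 to Col5a2 separated the groups further. Its log2 value was 0.71, 0.59 and 0.18 with vehicle, and -0.26, -0.34, -0.23 and -0.42 with BO-112. It was 0.20, 0.17, 0.40 and 0.22 with DMXAA and -0.30, -0.17, 0.04 and -0.14 with both agents. Tumours given BO-112, alone or with DMXAA, lay below every other tumour. The difference from vehicle was -0.81 with BO-112 and -0.64 with both agents (exact permutation p = 0.0571 each), and both agents differed from DMXAA by -0.39 (exact permutation p = 0.0286, the smallest possible for 4 against 4). With DMXAA alone the difference from vehicle was -0.25 with overlapping groups (exact permutation p = 0.229). Over the 20 ratio comparisons none passed after Benjamini-Hochberg adjustment, the lowest adjusted value being 0.19.

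Other chain pairs kept a steadier ratio. Col4a1 to Col4a2, neighbours in the genome, had log2 ratios of 0.68 ± 0.02 with vehicle, 0.68 ± 0.03 with BO-112 and 0.67 ± 0.03 with both agents (SD). With DMXAA the ratio was 0.79 ± 0.22, with DMXAA 2 alone at 1.11. Col6a1 to Col6a2 lay at 0.50 ± 0.11, 0.59 ± 0.06, 0.52 ± 0.06 and 0.63 ± 0.07 in the same order of vehicle, BO-112, DMXAA and both agents.

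**Figure D4:**
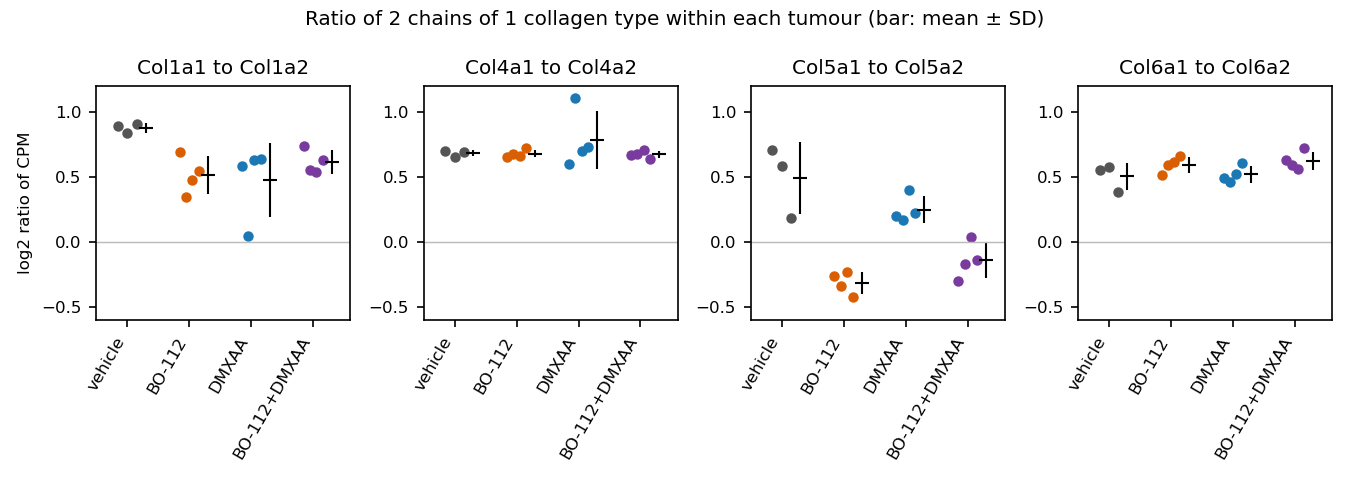
Log2 ratio of CPM of 2 chains of 1 collagen type in each tumour, with the group mean ± SD beside the points, for 4 chain pairs. The Col1a1 to Col1a2 ratio is 0.84 or more in the vehicle tumours and 0.74 or less in all treated ones, and the Col5a1 to Col5a2 ratio is lowest in the groups given BO-112.

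Among basement membrane chains, Col4a1 was higher with BO-112 than with DMXAA and no chain differed from vehicle. Col4a1 (ENSMUSG00000031502.12), with Col4a2 the ubiquitous network of vessel basement membranes, was at 701, 579 and 507 CPM with vehicle and at 753, 717, 644 and 825 CPM with BO-112. It was at 548, 215, 438 and 652 CPM with DMXAA and at 735, 723, 512 and 693 CPM with both agents. The groups given BO-112 alone and DMXAA alone overlapped between BO-112 3 and DMXAA 4. The difference between them was 0.77 ± 0.26 (limma adjusted p = 0.0463), and it was 0.44 (adjusted p = 0.0667) without DMXAA 2. This call held only without DMXAA 1, DMXAA 4 or BO-112+DMXAA 3 among the 15 fits, and in 5 of 11 other settings. Col4a2 was at 478, 448, 406 and 501 CPM with BO-112 and at 360, 99.4, 269 and 393 CPM with DMXAA, which did not overlap, and its difference of 0.88 ± 0.32 did not pass (limma adjusted p = 0.0599). Col4a5 was at 17.9 ± 4.37 CPM with vehicle and 11.96 ± 3.75 CPM with DMXAA (-0.61 ± 0.25, limma adjusted p = 0.244), and Col4a3 and Col4a4 averaged under 0.5 CPM in every group.

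Of the FACIT chains only Col22a1 was called. Col22a1 (ENSMUSG00000079022.11), a chain of tissue junctions such as those between muscle and tendon, was at 0.0712, 0.121 and 0.356 CPM with vehicle and at 0.768, 1.32, 0.998 and 0.510 CPM with BO-112. With DMXAA it was at 0.715, 0.528, 0.485 and 0.307 CPM and with both agents at 0.154, 0.553, 0.366 and 0.276 CPM. BO-112 and vehicle did not overlap, and the rise was 2.26 ± 0.52 (limma adjusted p = 0.00951). The gene is scarce, with 1 read in its lowest library, and its call was lost without vehicle 1 (1.87, adjusted p = 0.0610). Its highest tumour, BO-112 2, held adipocyte markers at a summed 313 CPM against 12.9 to 19.5 CPM in the other BO-112 tumours, and the part of this was not tested. Without the 4 libraries high in skeletal muscle genes the difference was 2.17 (adjusted p = 0.101). The abundant FACIT chain Col16a1 was steady at 415 ± 85.2, 362 ± 36.1, 352 ± 51.5 and 359 ± 16.7 CPM in vehicle, BO-112, DMXAA and both, and Col12a1 and Col14a1 were called in no comparison.

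Among the remaining kinds, the anchoring fibril chain Col7a1 and the type VI chain Col6a2 were called lower with DMXAA. The Col6a2 call was marginal and held in 3 of the 15 fits with a library left out. Col7a1 (ENSMUSG00000025650.14), the chain of the fibrils that anchor epithelial basement membranes, was at 708, 633 and 603 CPM with vehicle. It was at 490, 478, 539 and 546 CPM with BO-112, at 330, 445, 422 and 450 CPM with DMXAA, and at 513, 592, 496 and 544 CPM with both agents. All 12 treated tumours lay below all 3 vehicle tumours, and all 4 DMXAA tumours below all others. The fall with DMXAA was -0.66 ± 0.12 (limma adjusted p = 0.0187), while the differences with BO-112 (-0.34 ± 0.12, limma adjusted p = 0.0947) and with both agents (-0.27 ± 0.12, limma adjusted p = 0.413) did not pass. Here DMXAA 2 was not the lowest library, and without DMXAA 2 and DMXAA 3 the fall was -0.75 (adjusted p = 0.00730). The call was lost without vehicle 1 (adjusted p = 0.123) or vehicle 3 (adjusted p = 0.0591), and when a trend on transcript length was removed from each library (-0.37, adjusted p = 0.323) or only the compared groups were fitted (adjusted p = 0.304).

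Epithelial markers stood beside the Col7a1 result. The 4 measured of 8 tumour epithelial markers summed to 27.8 to 85.4 CPM with vehicle, and in the BO-112, DMXAA and combined groups to 7.40 to 12.04, 14.7 to 40.8 and 9.57 to 27.4 CPM, and the 4 measured of 8 keratinocyte markers to 7.26 to 10.2 CPM with vehicle and 5.95 to 12.4 with DMXAA. The epithelial sum was mostly Cdh1, and the members differed in sign: with DMXAA the differences were -1.09 ± 0.49 for Cdh1, -2.09 ± 0.84 for Epcam, 3.09 ± 0.82 for Krt19 and 0.87 ± 0.50 for Krt20, none of which passed. With BO-112, 1 of the 4 epithelial markers was called higher and 2 lower, beside 7.64% and 4.31% of all genes, and with both agents 0 were called. The part of these markers in the result was not tested.

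Type VI collagen forms beaded filaments from the chains Col6a1, Col6a2 and Col6a3. Col6a2 (ENSMUSG00000020241.14) was at 1364, 760 and 1154 CPM with vehicle and at 601, 353, 619 and 690 CPM with DMXAA. It was at 835, 750, 768 and 693 CPM with BO-112 and at 678, 842, 737 and 701 CPM with both agents. The DMXAA and vehicle tumours did not overlap, and the fall was -0.95 ± 0.22 (limma adjusted p = 0.0470). This call was marginal: among the 15 fits it held only without vehicle 2, DMXAA 2 or DMXAA 4, and it was lost with limma-voom (adjusted p = 0.0658), total count scaling (0.0731), array quality weights (0.0598) and only the compared groups (0.418). Without DMXAA 2 and DMXAA 3 the difference was -0.72 (adjusted p = 0.0629). Its partner Col6a1 was at 2004, 1133 and 1504 CPM with vehicle and at 845, 485, 889 and 1051 CPM with DMXAA, without overlap (-0.94 ± 0.22, limma adjusted p = 0.0554). Col6a3 was at 1468 ± 189 CPM with vehicle and 904 ± 454 CPM with DMXAA, where DMXAA 4 at 1374 CPM overlapped vehicle (-0.85 ± 0.31, limma adjusted p = 0.199). With BO-112 and with both agents the differences of the 3 chains from vehicle were between -0.53 and -0.28, and none passed.

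Col6a4 (ENSMUSG00000032572.10), a chain related to Col6a3, was at 3.77, 2.97 and 3.499 CPM with vehicle and at 2.91, 4.39, 3.39 and 4.72 CPM with BO-112. With DMXAA it was at 1.67, 2.26, 2.22 and 1.53 CPM, below every tumour of both those groups, and with both agents at 1.93, 3.56, 1.90 and 2.55 CPM. BO-112 exceeded DMXAA by 0.99 ± 0.24 (limma adjusted p = 0.0125), a call that held with each of the 15 libraries left out and was lost when the length trend was removed (0.70, adjusted p = 0.0881). Col18a1 (ENSMUSG00000001435.16), a basement membrane proteoglycan whose end fragment is endostatin, was at 355, 269 and 265 CPM with vehicle and at 385, 378, 384 and 369 CPM with BO-112. It was at 255, 118, 266 and 282 CPM with DMXAA and at 329, 329, 261 and 288 CPM with both agents. The BO-112 tumours lay close together above all 11 others. BO-112 exceeded DMXAA by 0.80 ± 0.22 (limma adjusted p = 0.0207). This call held with each library left out and without DMXAA 2 and DMXAA 3 (0.50), and was lost with only the compared groups (adjusted p = 0.0892). The difference from vehicle did not pass (0.37 ± 0.24, limma adjusted p = 0.353). Col15a1, of the same kind, was at 49.7 ± 5.19, 43.8 ± 3.91, 40.3 ± 21.7 and 41.8 ± 10.99 CPM in vehicle, BO-112, DMXAA and both, and was not called.

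For Col7a1 the change with both agents differed from the sum of the single changes, in a call that was marginal and fragile. The interaction (effect of adding DMXAA to BO-112 minus the effect of DMXAA alone) was 0.72 ± 0.17 (limma adjusted p = 0.0478), the 1 call among 36, beside 0.198% of all genes called higher, 1.15% lower and 1.35% in either direction. DMXAA took Col7a1 from 648 ± 54.3 to 412 ± 55.8 CPM on its own, and from 513 ± 34.1 to 537 ± 42.2 CPM in the presence of BO-112. The call held in 2 of the 15 fits with a library left out (without DMXAA 2 or DMXAA 4), and it was lost with limma-voom (adjusted p = 0.0516), geometric mean scaling (0.0519) and the length trend removed (0.47, adjusted p = 0.379). The interactions of Col6a1 (0.92 ± 0.31), Col6a2 (0.91 ± 0.30) and Col11a1 (1.80 ± 0.52) had the same sign and did not pass (limma adjusted p = 0.172, 0.166 and 0.106). That of Col22a1 had the other sign (-2.85 ± 0.70, limma adjusted p = 0.0608).

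The make-up of the collagen reads was compared as a share within each tumour, a description chosen after the values were seen and given with no test. Fibrillar chains were 47.0 to 49.9% of collagen reads with vehicle, and in the BO-112, DMXAA and combined groups 52.0 to 61.6%, 52.6 to 59.8% and 53.3 to 56.7%. The 12 treated tumours lay above the 3 vehicle tumours. The 3 main type VI chains were 30.96% ± 1.013 with vehicle (SD, n = 3), and 22.4% ± 3.41, 22.7% ± 1.37 and 24.6% ± 2.15 in the treated groups (n = 4 each), again without overlap with vehicle. Type I chains were 8.33 to 10.4% with vehicle, and in the same order 9.24 to 18.1%, 12.2 to 21.3% and 10.2 to 12.9%. Type V chains were 10.6% ± 0.68 with vehicle and 13.1% ± 0.49 with BO-112, and Col3a1 stayed between 24.997 and 32.6% in every tumour. A share rises when other chains fall, so these values do not separate a gain of fibrillar from a loss of type VI RNA.

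**Figure D5:**
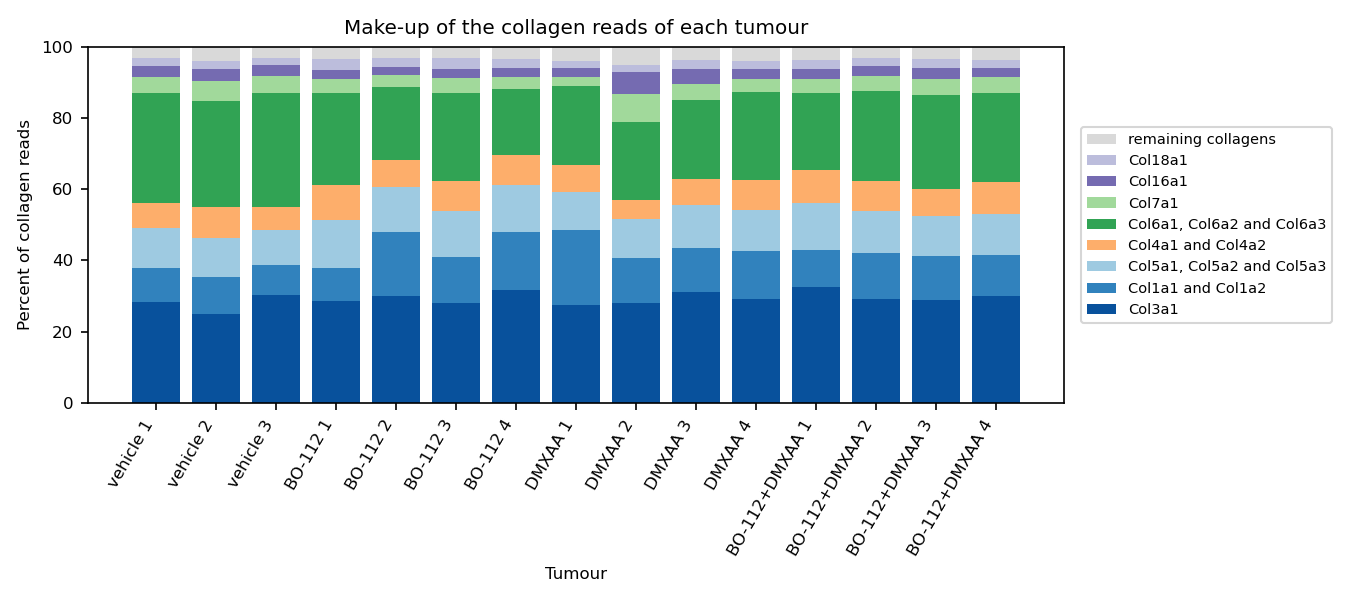
Percent of the collagen reads of each tumour held by each set of chains, stacked to 100%, for the 15 tumours in group order. The green type VI band takes 29.9 to 31.9% in the vehicle tumours and 18.7 to 26.6% in the treated ones, and the Col3a1 band stays near 29.2%.

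Genes that act on collagens were counted from lists of their functions. With BO-112 against vehicle 3 of 21 collagen-modifying and folding genes rose and 0 fell, beside 7.64% of all genes higher and 4.31% lower. They were the proline hydroxylase P4ha1 (0.78 ± 0.16, limma adjusted p = 0.00375), the lysine hydroxylase Plod3 (0.63 ± 0.13, limma adjusted p = 0.00445) and the calcium-store channel Tmem38b (0.68 ± 0.19, limma adjusted p = 0.0284). P4ha1 went from 247 ± 40.5 to 429 ± 98.1 CPM. Of 12 genes that trim or cross-link procollagen 1 rose, the lysyl oxidase Loxl3 (0.93 ± 0.23, limma adjusted p = 0.0166). Of 10 fibril-associated proteins 1 rose, decorin (Dcn), a small proteoglycan that coats fibrils, from 197 ± 53.6 to 402 ± 54.7 CPM (limma adjusted p = 0.00334). Of 15 basement membrane partners 1 rose, agrin (Agrn), from 212 ± 39.7 to 428 ± 52.3 CPM (limma adjusted p = 0.0276). Scaled by total count alone, the calls of Loxl3 and Agrn were lost. The counts of 1 in 12, 10 and 15 genes are near the share of all genes called higher. The lists' medians were between 0.02 and 0.30, beside -0.04 over all genes.

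On the side of receptors and proteases, BO-112 raised the integrin chain Itgb1 (0.39 ± 0.10, limma adjusted p = 0.0237) and lowered Lair1, an inhibitory collagen receptor of leukocytes, from 62.5 ± 10.8 to 36.8 ± 7.55 CPM (limma adjusted p = 0.0123). The platelet collagen receptor Gp6 was also called, at 0.331 ± 0.149 CPM with BO-112 and at 0 reads in all 3 vehicle tumours. Of 8 collagen-cleaving proteases the collagenase Mmp13 rose (1.77 ± 0.40, limma adjusted p = 0.00860) and Mmp15 fell (-0.71 ± 0.22, limma adjusted p = 0.0488). These counts, 2 higher and 1 lower of 10 receptors and 1 each way of 8 proteases, stand beside the same shares of all genes. DMXAA against vehicle gave 1 call over the 6 lists, the gelatinase Mmp9, which fell from 128 ± 36.2 to 66.2 ± 6.74 CPM (limma adjusted p = 0.0258), beside 1.25% of all genes called. Both agents gave 1 call, beside 2.67% of all genes, the neutrophil collagenase Mmp8, which rose from 0.699 ± 0.244 to 10.5 ± 7.75 CPM (limma adjusted p = 0.0403). Between the single agents BO-112 was higher for 6 of 10 receptors, among them the integrin Itga1 (1.23 ± 0.22, limma adjusted p = 0.00199), and lower for Lair1 (-1.20 ± 0.17), beside 11.2% of all genes higher and 10.2% lower. It was higher for 4 of 8 proteases and for Agrn (1.505 ± 0.26) and perlecan, Hspg2 (0.87 ± 0.30), of the 15 basement membrane partners, and 3 modifying genes were higher and 3 lower. Of the 10 fibril-associated proteins 3 were higher, fibronectin (Fn1, 0.92 ± 0.29), periostin (Postn, 0.89 ± 0.29) and Dcn (0.69 ± 0.19), and of the 12 trimming and cross-linking genes Loxl3 was higher (0.76 ± 0.22) and the protease enhancer Pcolce2 lower (-1.18 ± 0.28).

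Levels of cell type markers stand beside these results, and their part in them was not tested. The 12 fibroblast markers, which share Lum and Dcn with the fibril-associated list, summed to 514 to 722 CPM with vehicle, and in the BO-112, DMXAA and combined groups to 716 to 979, 572 to 787 and 636 to 890 CPM, and 2, 1 and 0 of them rose in the 3 treated groups, beside 7.64%, 1.08% and 2.49% of all genes called higher. Their mean log2 CPM was 4.53 to 5.11 with DMXAA against 4.05 to 4.42 with vehicle, without overlap. It was 4.01 to 4.90 with BO-112 and 4.09 to 4.63 with both agents. With DMXAA 9 of the fibroblast markers had positive and 3 negative differences from vehicle, with a median of 0.49. The 12 endothelial markers summed to 265 to 322 CPM with vehicle, and in the BO-112, DMXAA and combined groups to 388 to 449, 241 to 493 and 234 to 455 CPM, with 2, 0 and 1 higher beside the same shares. The 9 measured pericyte and smooth muscle markers summed to 252 to 299, 217 to 335, 177 to 384 and 157 to 272 CPM in that order, and 0 of 9 were called. Their highest sums with vehicle, BO-112 and DMXAA were in vehicle 2, BO-112 1 and DMXAA 1, each high in skeletal muscle genes. The 9 adipocyte markers summed to 21.9 to 27.3 CPM with vehicle, 43.5 to 401 CPM with DMXAA and 12.8 to 97.8 CPM with both agents. With BO-112 they summed to 313 CPM in BO-112 2 and to 12.9 to 19.5 CPM in the other 3, and BO-112 2 was the highest of the 15 libraries for Col1a2, Col5a3, Col14a1, Col22a1 and Col25a1. The 8 neutrophil markers, which include Mmp8, summed to 31.02 to 47.3 CPM with vehicle, and in the BO-112, DMXAA and combined groups to 403 to 483, 50.2 to 211 and 155 to 366 CPM. The 8 macrophage markers summed to 2079 to 2676 CPM with vehicle, and in the same order to 2039 to 2458, 2149 to 4499 and 2056 to 2623 CPM. Of these 8, 3 fell with BO-112, Cd163 (-4.71 ± 0.62), Mrc1 (-2.71 ± 0.47) and Csf1r (-0.55 ± 0.16), beside 4.31% of all genes called lower. The list was mixed, with 3 positive and 5 negative differences and a median of -0.19. Its mean log2 CPM, to which the large falls of Cd163 and Mrc1 contribute, was 6.24 to 6.51 against 6.98 to 7.56 with vehicle, without overlap. These values stand beside the fall of Lair1. The 6 Schwann cell markers summed to 23.1 to 29.3 CPM with vehicle and 22.3 to 43.9 CPM with DMXAA.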

How the data were processed

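The authors deposited log2 CPM values for 17712 genes in 15 libraries. STAR, edgeR, limma and the build mm39 are named in the submitters' processing notes. The counter, the annotation and the filter on low genes are not given in the sources used here. Every deposited log2 value converted back to a whole number of reads (largest distance 5.4e-09, tolerance 1e-06) once 0.5 reads added before the log were removed, and CPM were computed from those reads and the scaled library sizes. A raw count table with 15 columns that carry no sample names was not used.

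Symbols and transcript lengths came from the GENCODE annotation, by which 17636 genes had a symbol and 76 did not. The test was limma 3.58.1 in R 4.3.3 (trended, robust variance) on the log2 values with 4 group means over all 15 libraries, adjusted by Benjamini-Hochberg over all genes, threshold 0.05. It was tested on simulated data with independent noise and shifts planted in randomly drawn genes. The simulated data held no trend on transcript length and no added muscle or adipocyte RNA. That check therefore cannot speak for the calls above. Chain ratios were tested by exact permutation in scipy 1.17.1. Genes named are collagens past the threshold (at most 12 a comparison), the 3 highest per class per kb and a panel of 12 well-known chains, and in partner lists the 3 lowest p and the first in the other direction. Levels of Col24a1 and Col27a1 were added after their values were seen. Motifs were counted in the 250 bases before each RefSeq start. Members and lists were chosen with earlier results of these data known. Depth limits genes of low level: the lowest Col22a1 library holds 1 read.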

Additional observations from a re-analysis of the deposited data

Results flagged for a closer look

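In 4 of 66 groups of 4 tumours among the named genes, 1 library stood apart from the other 3 by more than Dixon's critical value (95% level) for its gap over the range, which chance alone gives in about 5% of groups. Col12a1 was at 217 CPM in BO-112 4 and between 111 and 123 CPM in the other BO-112 tumours. Col18a1 was at 118 CPM in DMXAA 2 and between 255 and 282 CPM in the other DMXAA tumours. In BO-112+DMXAA 3 the paired chains Col4a1 (512 CPM, others 693 to 735) and Col4a2 (314 CPM, others 444 to 463) were both low. The change of Col7a1 with DMXAA differed between tumours with and without BO-112, with an interaction of 0.72 on the log2 scale (limma adjusted p = 0.0478). That call was fragile: it held in 2 of the 15 fits with a library left out and in 5 of 10 other settings.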

How the results depend on the processing

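Among the refitted values of single collagen calls, 208 stayed past the threshold, 102 kept their direction and lost it, and 0 reversed. For BO-112 against vehicle the 4 calls became 2 with a replicate block, 9 with array quality weights, 9 without DMXAA 2 and DMXAA 3, 8 with only the compared groups and 0 once the 4 libraries high in muscle genes were left out, and ranged from 1 (without vehicle 1, vehicle 3, BO-112 3 or BO-112 4) to 9 (without DMXAA 2) with a library left out. For DMXAA against vehicle the 2 became 1 with total count scaling, limma-voom or array weights, and 0 without the muscle-high libraries or with only the compared groups, and ranged from 0 (without vehicle 1 or vehicle 3) to 4 (without vehicle 2 or DMXAA 4). The 0 calls of both agents against vehicle stayed 0 in every setting run. Both agents against BO-112 gave 2 with array weights or without DMXAA 2 and DMXAA 3, 1 with only the compared groups and 0 to 1 with a library left out, and both agents against DMXAA 0 to 2 (2 without DMXAA 4). For BO-112 against DMXAA the 5 became 1 without the muscle-high libraries and 2 with only the compared groups, and ranged from 3 to 12 (12 without DMXAA 4). The 1 interaction call became 0 with geometric mean scaling, limma-voom or on leaving out the muscle-high libraries, and 2 with array weights or without DMXAA 2 and DMXAA 3, and ranged from 0 to 2. The 1 called with the replicate block or the length trend removed was another gene, with the other sign. The cause was not tested where samples and genes stayed the same. Scaling by total count alone moved the median of all genes by -0.16 with BO-112 and -0.13 with DMXAA, and the share of higher among all BO-112 calls from 63.9% to 34.0%. Same-numbered tumours did not vary together (mean r 0.015 over 21 pairs, 5 over 0.1; 2 of 15 libraries correlated best with their own number), so the block used the number only; it gave 3 calls for DMXAA and 6 for BO-112 against DMXAA. Under the block Col5a3 (adjusted p = 0.0606) and Col11a2 (0.0811) against vehicle and the Col7a1 interaction (0.0579) did not pass. The edgeR alternative was not run. Chain ratio tests of 4 against 3 tumours could not go below 0.0571, so their refits say nothing of stability. Of 36 refitted partner list counts 10 moved by over 1.5 times: with BO-112 to 6 (modification), 0 (trimming), 2 (fibril-associated) and 0 (basement membrane) under total count scaling, and to 2 (trimming) and 6 (receptors) with the length trend removed; with DMXAA to 1 (fibril-associated, length); and with both agents to 1 (modification, length) and, for proteases, 0 (total count) and 2 (length).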
